A study of Homo sapiens with 12 samples.

Results

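Small extracellular vesicles (EVs) carry microRNAs (miRNAs) out of the cell, and the measurement described here is how the balance between EVs and their parent cells differed between a miR-122 knockout line and its control. For each miRNA the EV-to-cell ratio of relative levels was taken in both lines on a log2 scale. The ratio in the control line was then subtracted from the ratio in the knockout line. This difference of differences is called the interaction, and a value above 0 means a higher EV-to-cell ratio in the knockout line. A miRNA was described if the 2 knockout cell libraries and the 2 control cell libraries each summed to at least 20 counts. That rule kept 485 of the 2588 listed miRNAs. It reads cell libraries only, so it left out miRNAs seen mainly in EVs as well as those that fell to a few counts in knockout cells. At its edge, miR-1237-3p was kept with 20 counts in both groups of cells, while miR-548ap-5p and miR-548j-5p, with 19 counts in knockout cells and 87 in control cells, were not.

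All groups came from MDA-MB-231, a human triple-negative breast cancer cell line of mesenchymal type. The control line carried the empty vector of a lentiviral short hairpin RNA system. The knockout line had miR-122 disrupted by CRISPR-Cas9 with 2 guide RNAs, checked by Sanger sequencing, and the labels do not say whether it is a single clone or whether it carries that vector. A line with a lentiviral short hairpin RNA against RAB27A, a small GTPase of vesicle secretion, also had cells and EVs and serves below as a comparison. Cells grew in 10% fetal bovine serum, and conditioned medium was taken after 24 h without serum in the presence of 1% bovine serum albumin. EVs were pelleted from it by ultracentrifugation and washed, and the producing cells were harvested at the same time. Each of the 4 groups used here had 2 libraries. Nothing in the labels says that they are separate cultures. The p-values therefore cover the spread between libraries alone, and that spread may be technical.

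A miRNA is cut from one arm of a hairpin precursor, loaded into an Argonaute protein and guided to messenger RNAs by its seed, the bases near its 5′ end. Cells release part of their miRNA in EVs, and the EV profile usually resembles that of the parent cell without copying it. Because every library gives shares of a total, the EV-to-cell ratio says nothing of how much RNA a cell or a vesicle holds, and fewer vesicles and less RNA per vesicle cannot be told apart.

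The miRNAs with the largest changes are shown first, with the seed (bases 2 to 8) in capitals and the 5′ end on the left. Sequences are from RefSeq, with positions on GRCh38.p14 and gene annotation from GENCODE v29. The first set holds the 5 largest increases of the EV-to-cell ratio among the miRNAs of at least median level.
miR-590-3p: uAAUUUUAuguauaagcuagu
miR-335-3p: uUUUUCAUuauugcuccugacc
miR-374b-3p: cUUAGCAGguuguauuaucauu
miR-454-3p: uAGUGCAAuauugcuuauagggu
miR-374a-3p: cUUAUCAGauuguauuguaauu
They lie within introns of other genes on the same strand: miR-590-3p in EIF4H (chr7:74191253-74191273), miR-335-3p in MEST (chr7:130496162-130496183), miR-374b-3p and miR-374a-3p in FTX (chrX:74218557-74218578 and chrX:74287295-74287316) and miR-454-3p in SKA2 (chr17:59137787-59137809). The next set is from the 15 leading decreases, 1 that fell in EVs and 3 that rose in cells, and no seed is shared between them.
miR-143-3p: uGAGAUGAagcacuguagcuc
miR-193b-3p: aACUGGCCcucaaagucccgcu
miR-210-3p: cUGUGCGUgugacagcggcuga
miR-146a-5p: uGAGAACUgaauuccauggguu
miR-143-3p lies in an exon of CARMN (chr5:149428978-149428998), miR-193b-3p in an intron of MIR193BHG (chr16:14304017-14304038), miR-210-3p in an intron of MIR210HG (chr11:568112-568133) and miR-146a-5p in an exon of MIR3142HG (chr5:160485372-160485393). A further set shows miRNAs that share a seed and yet differed in the interaction.
let-7b-5p: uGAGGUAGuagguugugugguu
let-7i-5p: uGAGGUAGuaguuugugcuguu
let-7f-5p: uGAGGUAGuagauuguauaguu
miR-130b-3p: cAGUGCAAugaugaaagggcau
miR-301a-3p: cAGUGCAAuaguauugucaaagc
miR-93-5p: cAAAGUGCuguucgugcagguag
miR-20a-5p: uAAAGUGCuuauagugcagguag
miR-25-3p: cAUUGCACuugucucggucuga
miR-32-5p: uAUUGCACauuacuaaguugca

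Library totals ran from 9836680 to 11840597 counts in cells and from 2387336 to 3754673 in EVs. The described miRNAs held 99.96% of the counts of control cells, 99.98% in knockout cells, 99.95% in knockout EVs and 98.9% in control EVs. The edited miRNA was not among them: miR-122-5p had 5 and 4 counts in control cells and none in knockout cells, against 790 and 651 in control EVs and 4 and 3 in knockout EVs. The listed miRNAs of this cell line were miR-21, miR-100, miR-146a, miR-155, miR-221, miR-222 and miR-29a. They summed to between 576961 and 722218 CPM in the cell libraries, and the epithelial miR-200 family to between 133 and 166. For such sums CPM are counts scaled by the library total alone. Levels of single miRNAs below are CPM scaled to a common library size by TMM factors. Of these line markers miR-155-5p had no count in control cells, and 0 and 5 in knockout cells. The 2 libraries of a group always differed beyond sampling error. Chi-square per degree of freedom was 211 for knockout cells and 16.3 to 31.8 for the other groups.

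The EV-to-cell ratio differed between the lines for many miRNAs, and the change in cells was more often the larger part of the difference. By edgeR's quasi-likelihood test with Benjamini-Hochberg adjustment over the 641 miRNAs tested, 217 of 485 (44.7%) passed an adjusted p of 0.05, beside 41.2% of all tested. The ratio was higher in the knockout line for 143 of them and lower for 74, beside 25.7% and 15.4% of all tested. Changes of at least 4-fold were called for 42 and 16, beside 9.98% and 6.4% of all tested. The median interaction was 0.11 over the 485 and 0.01 over all tested. The split moved with the scaling, and 65.9% of the calls were higher here and 52.4% with RLE size factors, which lowered the median by 0.27. DESeq2 gave 113 higher and 98 lower, TMM factors from these miRNAs alone 126 and 104, and counts thinned to the shallowest library 115 and 87. Without knockout cell replicate 2 there were 133 and 101. Directions of small changes are therefore relative to the scaling.

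Taken apart, the contrast showed many changes in cells and fewer in EVs. Between knockout and control cells 137 miRNAs rose and 174 fell, where 24% and 34.9% of all tested did. Between knockout and control EVs 78 rose and 54 fell, where 12.5% and 19.8% of all tested did. Scaled by library totals alone, 26.4% of the EV calls were rises, against 59.1% with TMM factors. Without control EV replicate 1 or 2 only 87 and 78 miRNAs were called in EVs. For the 364 miRNAs that reached 20 counts in all 4 groups, the median size of the change was 0.82 on the log2 scale in cells and 0.32 in EVs.

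Among the 143 miRNAs whose ratio was higher, the change in cells was the larger of the 2 parts for 113. In knockout cells all but 21 of the 143 fell, 20 without a call and 1 that rose, while in knockout EVs 100 did not pass, 34 rose and 9 fell. Their median change was −1.42 in cells and 0.18 in EVs, and their median EV-to-cell ratio went from −0.44 in the control line to 1.22 in the knockout line. Among the 74 whose ratio was lower, 54 rose in knockout cells and 29 fell in knockout EVs. The median change of these 74 was 0.92 in cells and −0.18 in EVs. Within the control line, EVs were above cells for 73 of the 485 and below for 155 (25.4% and 25.3% of all tested). Within the knockout line they were above for 144 and below for 148 (31.4% and 24.2%). EVs were called below cells in the control line and above them in the knockout line for 36 miRNAs with a higher interaction (5.77% of all tested), and the reverse held for 15 with a lower one (2.34%). These counts were 26 and 14 with total counts, 21 and 17 with RLE factors and 19 and 15 with DESeq2. For all 217 called interactions the EV-minus-cell differences of the 2 lines did not overlap, as was so for 66.6% of all tested.

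**Figure D1:**
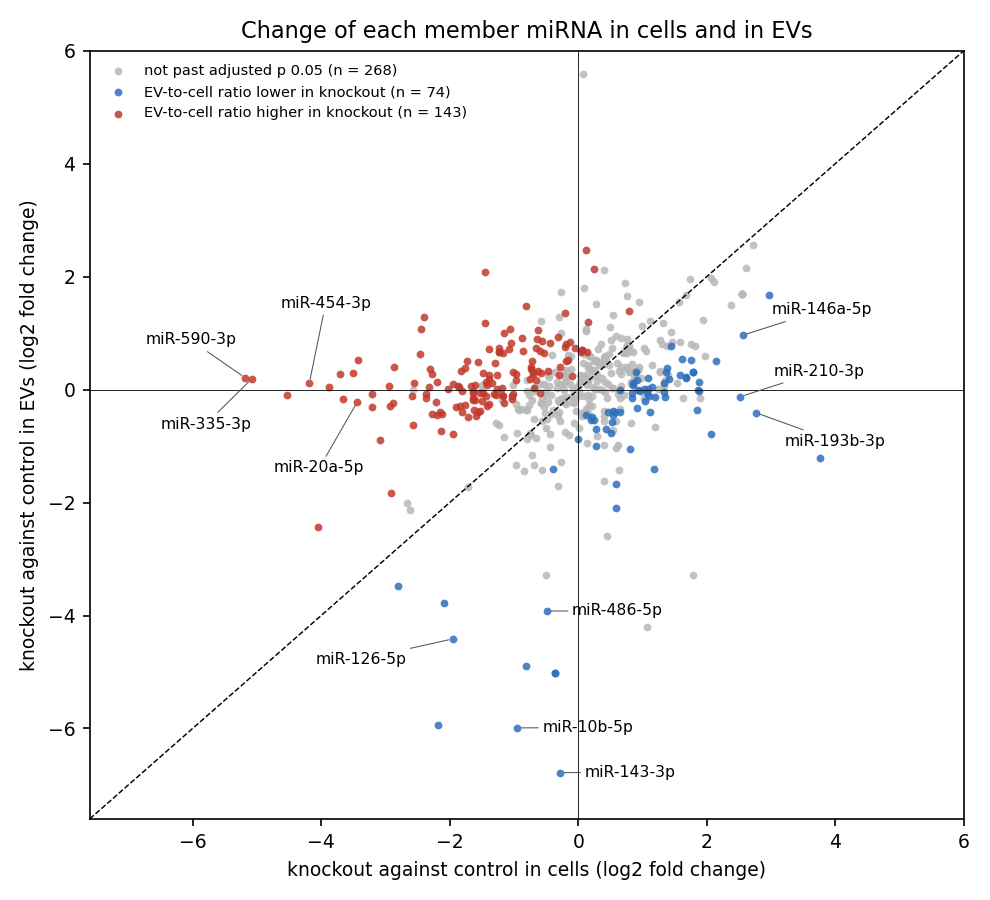
Change of each of the 485 miRNAs between knockout and control lines in cells (x axis) and in EVs (y axis), both as log2 fold change, with the dashed line marking equal change. The 143 miRNAs with a higher EV-to-cell ratio spread leftwards near 0 on the EV axis, whereas the 74 with a lower ratio spread to the right or, for a few such as miR-143-3p, far downwards.

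The largest increases were losses from cells that the EVs did not show. miR-590-3p stood at 114 and 115 CPM in control cells, 1.95 and 4.24 in knockout cells, 74.3 and 48.4 in control EVs and 83.2 and 57.6 in knockout EVs. The knockout cells were far below the 3 other groups, and the EVs of the lines overlapped. Its EV-to-cell ratio was 42.0-fold higher in the knockout line (interaction 5.39, SE 0.35, adjusted p = 2.35e-11). miR-335-3p, from the hairpin of the metastasis suppressor miR-335, stood at 232 and 243 CPM in control cells and 6.22 and 7.81 in knockout cells, against 63.9 and 73.4 in control EVs and 87.0 and 69.9 in knockout EVs. Its interaction was 5.27 (SE 0.25, adjusted p = 1.19e-13), again with EVs that overlapped between lines.

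miR-454-3p was the most abundant of the 15 leading increases. It stood at 6302 and 6382 CPM in control cells and 358 and 340 in knockout cells, an 18.2-fold fall. EVs held 3654 and 3422 CPM in the control line and 3763 and 3901 in the knockout line, so the knockout EVs were slightly above the control EVs and more than 10 times above their own cells. The interaction was 4.30 (SE 0.15, adjusted p = 6.65e-16). miR-20a-5p, a growth-promoting member of the miR-17-92 cluster, stood at 3819 and 4074 CPM in control cells, 349 and 381 in knockout cells, 2634 and 2411 in control EVs and 2115 and 2239 in knockout EVs. Only the knockout cells were low by a wide margin, with an interaction of 3.22 (SE 0.15, adjusted p = 1.31e-13).

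The pair of hairpins in FTX, a noncoding RNA gene of the X-inactivation centre, gave 4 further miRNAs. miR-374a-3p fell from 587 and 608 CPM in control cells to 46.9 and 44.8 in knockout cells, with 302 and 258 in control EVs and 351 and 326 in knockout EVs (interaction 3.98, SE 0.19). miR-374a-5p from the same hairpin had an interaction of 3.92 (SE 0.20), and miR-374b-3p and miR-374b-5p had 4.44 (SE 0.31) and 3.01 (SE 0.20). Of the 6 listed miRNAs of this locus, miR-421 was also higher at 1.73, and miR-545-3p stood at 1.79 without passing (adjusted p = 0.099).

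The remaining members of the leading 15 were miR-577 (3.95), miR-664a-3p (3.52), miR-32-5p (3.50), miR-26a-2-3p (3.27), miR-450b-5p (3.13), miR-3065-3p (3.09) and miR-224-5p (2.91). All 15 fell in knockout cells, by −2.45 to −5.18 on the log2 scale. In EVs they changed by −0.30 to 1.08, and 12 of the 15 did not pass there. miR-664a-3p went up in EVs as it went down in cells: it stood at 24.2 and 20.8 CPM in control cells, 3.41 and 4.8 in knockout cells, 25.1 and 20.5 in control EVs and 43.6 and 52.7 in knockout EVs.

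**Figure D2:**
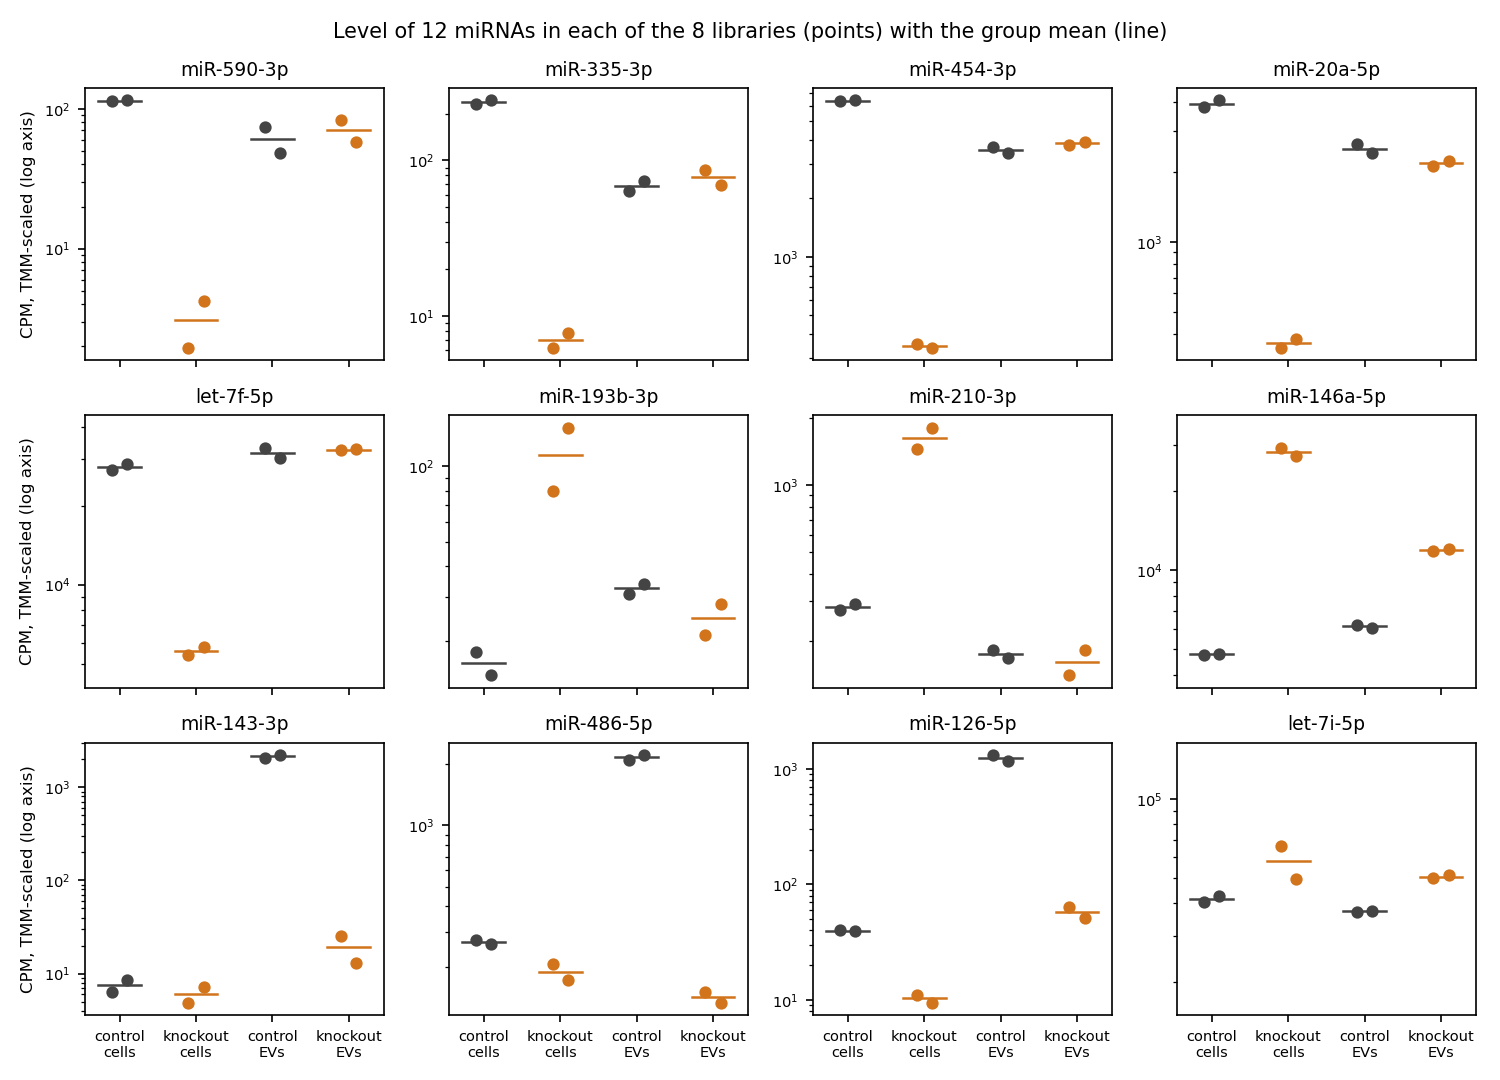
Level of 12 miRNAs in each of the 8 libraries (points; lines are group means of 2) as TMM-scaled CPM on log axes that differ between panels. In miR-590-3p, miR-335-3p, miR-454-3p, miR-20a-5p and let-7f-5p the knockout cells sit far below the 3 other groups, in miR-193b-3p, miR-210-3p and miR-146a-5p they sit above them, and in miR-143-3p, miR-486-5p and miR-126-5p the control EVs stand apart.

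Decreases of the ratio are described by 2 kinds of change, which overlapped. Of the 15 leading decreases 9 were called higher in knockout cells and 8 were called lower in knockout EVs, so some did both. The first kind was a rise in cells that the EVs did not follow in full. miR-193b-3p, known to repress urokinase in breast cancer cells, stood at 18.1 and 14.6 CPM in control cells and 79.3 and 143 in knockout cells. In EVs it stood at 30.9 and 34.0 CPM in the control line and 21.1 and 28.1 in the knockout line. The knockout cells were the highest group although their 2 libraries differed widely, and the interaction was −3.17 (SE 0.34, adjusted p = 7.4e-08). miR-210-3p, the classic hypoxia-induced miRNA, stood at 274 and 293 CPM in control cells, 1449 and 1812 in knockout cells, 181 and 168 in control EVs and 140 and 181 in knockout EVs. EVs of the lines overlapped while cells rose 5.75-fold (interaction −2.65, SE 0.20, adjusted p = 2.19e-10).

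miR-146a-5p, which NF-κB induces and which represses IRAK1 and TRAF6, was the most abundant miRNA with a large decrease. Its level was 4770 and 4824 CPM in control cells, 29211 and 27265 in knockout cells, 6210 and 6050 in control EVs and 11878 and 12016 in knockout EVs. It rose in both fractions, 5.89-fold in cells and 1.95-fold in EVs, and its ratio was therefore lower in the knockout line (interaction −1.59, SE 0.14, adjusted p = 2.68e-09). The other arm, miR-146a-3p, rose by 2.12 in cells and 1.90 in EVs, and its interaction of −0.22 did not pass (adjusted p = 0.59). miR-574-5p (−1.65), miR-629-5p (−1.51), miR-1307-5p (−1.48) and miR-320c (−1.47) also rose in knockout cells and were lower in ratio. miR-4516 did so at −1.46 (adjusted p = 0.0076), at 1.35 and 1.38 CPM in control cells. That call was lost after removal of the GC trend, where the interaction was −0.74 (adjusted p = 0.173). It was also lost after thinning (−1.10) and without knockout cell replicate 1 (−1.56) or 2 (−1.61).

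The second kind was a fall in EVs. miR-143-3p, a miRNA of smooth muscle and fibroblasts, stood at 6.39 and 8.54 CPM in control cells and 4.88 and 7.25 in knockout cells, and at 2087 and 2225 in control EVs against 25.5 and 12.9 in knockout EVs. Cells of the lines overlapped, and the control EVs were far above every other library. The interaction was −6.50 (SE 0.35, adjusted p = 6.33e-13), a 90.3-fold lower ratio. miR-10b-5p, a HOXD-cluster miRNA tied to invasion of breast cancer cells, fell from 1018 and 941 CPM in control EVs to 18.1 and 12.3 in knockout EVs, with 10.8 and 9.64 in control cells and 6.34 and 4.35 in knockout cells (interaction −5.04, SE 0.30).

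miR-486-5p, abundant in red blood cells, stood at 273 and 261 CPM in control cells, 207 and 174 in knockout cells, 2101 and 2222 in control EVs and 151 and 134 in knockout EVs. Control EVs were high and knockout EVs lay below the cells of their own line, with an interaction of −3.43 (SE 0.18, adjusted p = 4.94e-13). Both arms of miR-126, which lies in an intron of the endothelial gene EGFL7, fell in both fractions and more in EVs. For miR-126-5p the levels were 40.3 and 39.3 CPM in control cells, 11.1 and 9.48 in knockout cells, 1316 and 1158 in control EVs and 63.9 and 51.7 in knockout EVs (interaction −2.46, SE 0.22). miR-126-3p changed by −1.68. The leading decreases also held miR-99a-5p (−2.26) and miR-1246, whose sequence matches U2 small nuclear RNA (−2.67). Their parts in cells and in EVs are not given here.

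Several of the miRNAs lost from EVs mark other cell types. Sums of such markers are CPM of the library total, without TMM factors. Over all 11 listed miRNAs of blood cells, the summed level was 9895 to 11528 CPM in control EVs, 158 to 226 in knockout EVs, 275 to 289 in control cells and 168 to 171 in knockout cells. The defining leukocyte miRNA miR-223-3p had no count in either group of cells, and miR-451a, the main miRNA of red blood cells, had 12 counts in control cells against 22241 in control EVs and 164 in knockout EVs. The 10 listed miRNAs of stroma summed to 3849 to 3934 CPM in control EVs, 40.4 to 54.6 in knockout EVs and 12.2 to 22.0 in cells. The 2 arms of miR-126 summed to 2648 to 2966 CPM in control EVs, 129 to 136 in knockout EVs and 22.3 to 113 in cells. The part of these markers in the interaction was not tested.

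Few of these markers met the count rule in cells. Of the 4 stromal miRNAs that did, all 4 had a lower ratio (median −4.67). So had 2 of 3 of blood cells (median −3.43) and 2 of 2 of endothelium, beside 15.4% of all tested. The other of blood cells, miR-486-3p, was not called, with 74 counts in control EVs and 72 in knockout EVs. Lists of other tissues did not go this way. Of the neuron list, the arms of miR-9, 2 of 2 were higher (median 1.41), and of the liver list 1 of 2, with none lower in either. miR-199a-3p had an interaction of −4.67 (SE 0.32), and its entry shares all counts with miR-199b-3p. miR-142-3p of leukocytes had −3.77 (SE 0.51). None of the 92 listed miRNAs of the imprinted 14q32 cluster met the rule: 81 had no count in control cells, and the cluster summed to 0.845 to 2.44 CPM in cells, 1861 to 1972 in control EVs and 8.53 to 18.4 in knockout EVs. With the blood, stromal, endothelial and 14q32 miRNAs left out before scaling, a choice made after seeing the data, 129 were higher and 84 lower.

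Of the 8 most abundant miRNAs 5 had a higher ratio in the knockout line and the call was missed for 3. The level of miR-100-5p was 333942 and 321648 CPM in control cells, 613068 and 500325 in knockout cells, 227088 and 241014 in control EVs and 355117 and 377509 in knockout EVs. It was higher in the knockout line in both fractions, and its interaction of −0.12 did not pass (SE 0.15, adjusted p = 0.587). miR-21-5p, an oncogenic miRNA that represses PDCD4, had −0.25 (adjusted p = 0.186), and let-7i-5p had −0.04 (adjusted p = 0.923). These calls depended on the setting. miR-21-5p was lower at −0.52 with RLE factors, at −0.90 after removal of the GC trend and at −0.46 without knockout cell replicate 1. Without knockout cell replicate 2, miR-100-5p and let-7i-5p were lower at −0.40 and −0.38. The ratio was higher for miR-221-3p (0.69), let-7a-5p (0.96), miR-26a-5p (1.46), miR-27b-3p (2.23) and let-7f-5p (2.37). For miR-221-3p and let-7a-5p the larger part was a rise in EVs, by 0.51 and 0.75, as it was for miR-99b-5p (0.67), miR-23b-3p (0.90) and miR-125a-5p (0.80). The call was lost for miR-221-3p with DESeq2 (0.42) and for let-7a-5p after removal of the GC trend (0.31). The interaction of miR-99b-5p, 0.62, lost its call with RLE factors (0.35), with DESeq2 (0.35), without control cell replicate 1 (0.49), without control EV replicate 1 (0.44) and without knockout cell replicate 2 (0.30).

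The let-7 family, which represses RAS and HMGA2, was split although its 9 seed-sharing miRNAs differ by few bases. let-7f-5p stood at 27245 and 28794 CPM in control cells, 5384 and 5802 in knockout cells, 33238 and 30331 in control EVs and 32544 and 32837 in knockout EVs, so only the knockout cells were low (interaction 2.37, SE 0.14, adjusted p = 6.6e-12). let-7b-5p did the reverse, at 1100 and 1147 CPM in control cells, 2996 and 3748 in knockout cells, 1502 and 1368 in control EVs and 1799 and 1637 in knockout EVs (interaction −1.33, SE 0.17, adjusted p = 7.55e-07). Of those 9, 6 were higher and 2 lower. Reads of such close relatives can be assigned to one another, and how reads with more than 1 match were handled is not given in the sources used here.

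Other seeds were split in the same way, and their groups hold only miRNAs with a matched RefSeq sequence. Of the 4 miRNAs with the AGUGCAA seed, miR-454-3p stood at 4.30 and miR-301a-3p, which shares its SKA2 intron location, at 1.13. miR-301b-3p was at −0.10 without passing (adjusted p = 0.902), and miR-130b-3p was lower at −0.97 (SE 0.20, adjusted p = 0.000362). miR-130a-3p of that family is not among these 4. It stood at 0.20 without passing (adjusted p = 0.462) in the fit on all 12 libraries described below. Of the 5 with the AAAGUGC seed, miR-20a-5p (3.22) and miR-17-5p (0.91) were higher, and miR-93-5p (0.22, called at 0.37 after removal of the GC trend), miR-106b-5p (−0.34) and miR-106a-5p (−0.59) did not pass. Of the 4 with the AUUGCAC seed, miR-32-5p (3.50), miR-92a-3p (1.51) and miR-92b-3p (1.45) were higher, while miR-25-3p stood at −0.15 (adjusted p = 0.55). miR-17-5p and miR-20a-5p come from the same transcript, MIR17HG, and their interactions were 0.91 and 3.22. miR-92a-3p comes from MIR17HG and also from a hairpin on chromosome X, so its counts cannot be assigned to either.

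**Figure D3:**
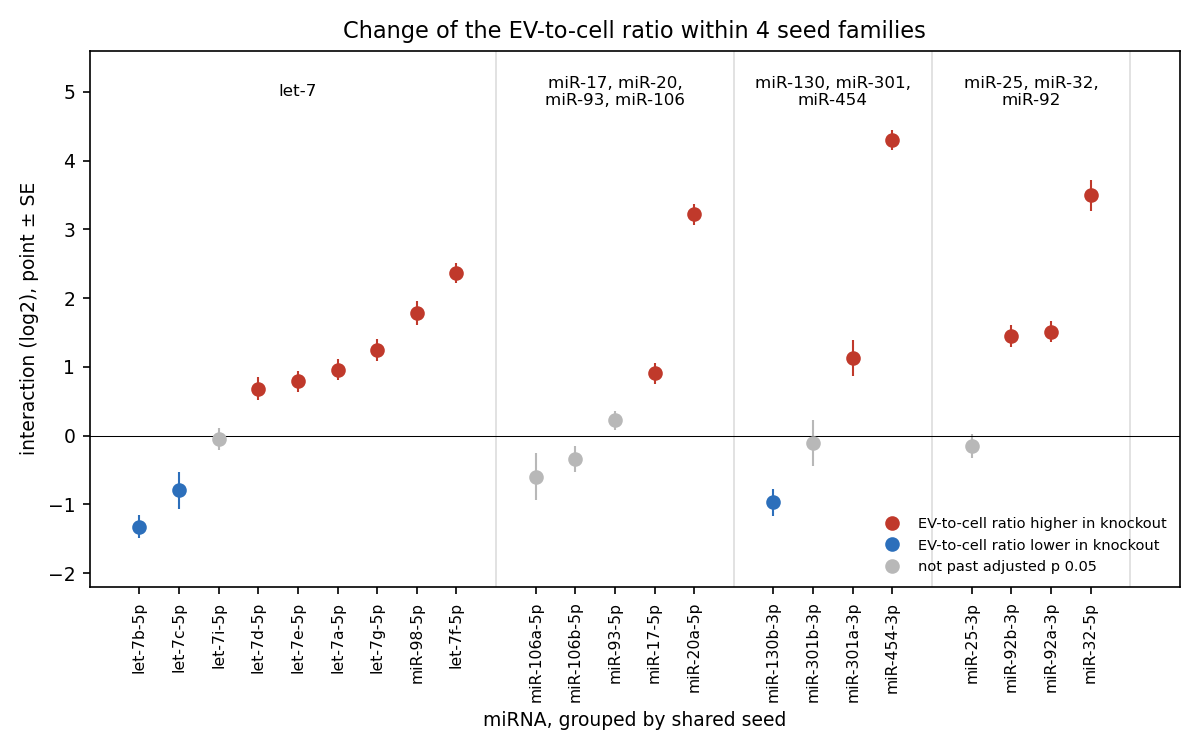
Interaction (log2) of each miRNA with a matched sequence in 4 groups that share a seed, with point and SE, coloured by call. In each group the values run from below 0 to above 2, from −1.33 to 2.37 among the let-7 miRNAs.

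The families are given by their counts, to be read against the 25.7% and 15.4% of all tested that were higher and lower. In the family of miR-15 and miR-16, which represses BCL2 and cyclins, 9 of 12 miRNAs had a higher ratio and 1 a lower one (median 1.45). Its main member, miR-16-5p, stood at 7295 and 6905 CPM in control cells, 833 and 1026 in knockout cells, 5822 and 5379 in control EVs and 4252 and 4962 in knockout EVs (interaction 2.65, SE 0.17, adjusted p = 1.22e-11). In the miR-26 family, which represses EZH2, 4 of 5 were higher and none lower (median 2.22), and miR-26b-5p stood at 2.22 (SE 0.16). All 4 arms of miR-221 and miR-222, repressors of the cell cycle inhibitor p27, were higher (median 1.03). In the family of miR-130, miR-301 and miR-454 4 of 7 were higher and 1 lower, and in the clusters of miR-23, miR-24 and miR-27 6 of 11 and 2. In the miR-17-92 clusters 5 of 18 were higher, 2 lower and 11 not called (median 0.16), close to the shares over all tested.

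In the family of miR-148 and miR-152 3 of 5 were higher. miR-148a-3p, which represses DNMT1, fell in both fractions, from 5555 and 5627 CPM in control cells to 372 and 301 in knockout cells and from 3521 and 4011 in control EVs to 680 and 724 in knockout EVs. The fall was deeper in cells (−4.06) than in EVs (−2.42), which gave an interaction of 1.63 (SE 0.16, adjusted p = 2.43e-08). In the miR-200 family, repressors of ZEB1 and ZEB2, 5 of 7 were higher and none lower (median 1.04). miR-200b-3p did so by a rise in EVs, at 73.2 and 67.9 CPM in control cells, 79.2 and 78.3 in knockout cells, 65.3 and 66.6 in control EVs and 149 and 154 in knockout EVs. Its knockout EVs were the highest group, with an interaction of 1.04 that did not pass after removal of the GC trend (0.39). In contrast, miR-200c-3p was higher through a fall in cells (−2.30).

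Lower ratios prevailed in the list of miR-320 and miR-484, which are made without Drosha: 4 of 6 were lower and 1 higher (median −1.10). miR-320a rose 1.75 in cells and 0.52 in EVs, for an interaction of −1.23 (SE 0.15, adjusted p = 3.7e-07). miR-484 was the exception at 1.66 (SE 0.18). In the placental cluster on chromosome 19, 1 of 11 was lower and none higher (median −0.84), and all 11 rose both in knockout cells (median 2.54) and in knockout EVs (median 1.70). miR-516a-5p stood at 73.0 and 73.2 CPM in control cells, 581 and 568 in knockout cells, 68.8 and 63.1 in control EVs and 207 and 216 in knockout EVs (interaction −1.29, SE 0.19). miR-518e-5p, miR-519a-5p and 4 further entries of that cluster have identical counts and count as 6 entries at −0.84 (adjusted p = 0.0837). For miR-519a-5p among them the interaction passed under 10 of the alternatives, from −0.87 with all 12 libraries to −1.64 without control cell replicate 1.

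Counts in the other lists varied. Of the miR-30 family 3 of 11 were higher and 1 lower, and of the miR-181 family 2 of 9 were lower and none higher, with miR-181a-5p at −0.87. Of the miR-29 family 2 of 7 were lower, of the list of miR-99, miR-100 and miR-125 3 of 9 were higher and 1 lower, and of the miR-548 family 5 of 10 were higher. Among liver miRNAs miR-194-5p was higher at 0.93 and miR-192-5p stood at 0.16 (adjusted p = 0.56). No muscle miRNA met the count rule. Of the 8 entries that overlap other abundant RNAs 4 were lower and none higher.

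The arms of a hairpin start as 1 transcript. Pairs were counted only among the 429 described miRNAs with a matched RefSeq sequence, so some hairpins, such as that of miR-374a, are left out. Within these, both arms met the count rule for 111 hairpins. Both were called for 34 of them, in the same direction for 24 and in opposite directions for 10. Among those 10, miR-27a-3p was higher at 2.46 and miR-27a-5p lower at −0.70, miR-140-5p was higher at 1.58 and miR-140-3p lower at −1.04, and miR-17-5p was higher at 0.91 and miR-17-3p lower at −0.94. miR-140-5p stood at 205 and 222 CPM in control cells against 65.0 and 72.2 in knockout cells, while miR-140-3p stood at 729 and 741 against 1163 and 1151. Arms of miR-32, miR-20a, miR-126, miR-210 and miR-193b moved together. These examples were chosen after their values were seen.

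The direction of the interaction went with base composition. RefSeq sequences were matched for 429 of the 485 miRNAs (88.5%). Among the 120 with the lowest GC content, 19.05% to 40.9%, 51.7% had a higher ratio and 10.8% a lower one (median interaction 0.86). Among the 91 with the highest, 60% to 95.2%, 15.4% had a higher ratio and 20.9% a lower one (median −0.31). Across the 429 miRNAs, which share libraries and are not independent, Spearman's rho with GC content was −0.32 for the interaction, 0.42 for the change in cells and 0.12 for the change in EVs. For the EV-to-cell ratio it was −0.03 in the control line and −0.39 in the knockout line. Deviations of single libraries from the mean of all 8 gave 0.41 and 0.40 in the 2 knockout cell libraries and −0.34 to −0.16 in the other 6.

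**Figure D4:**
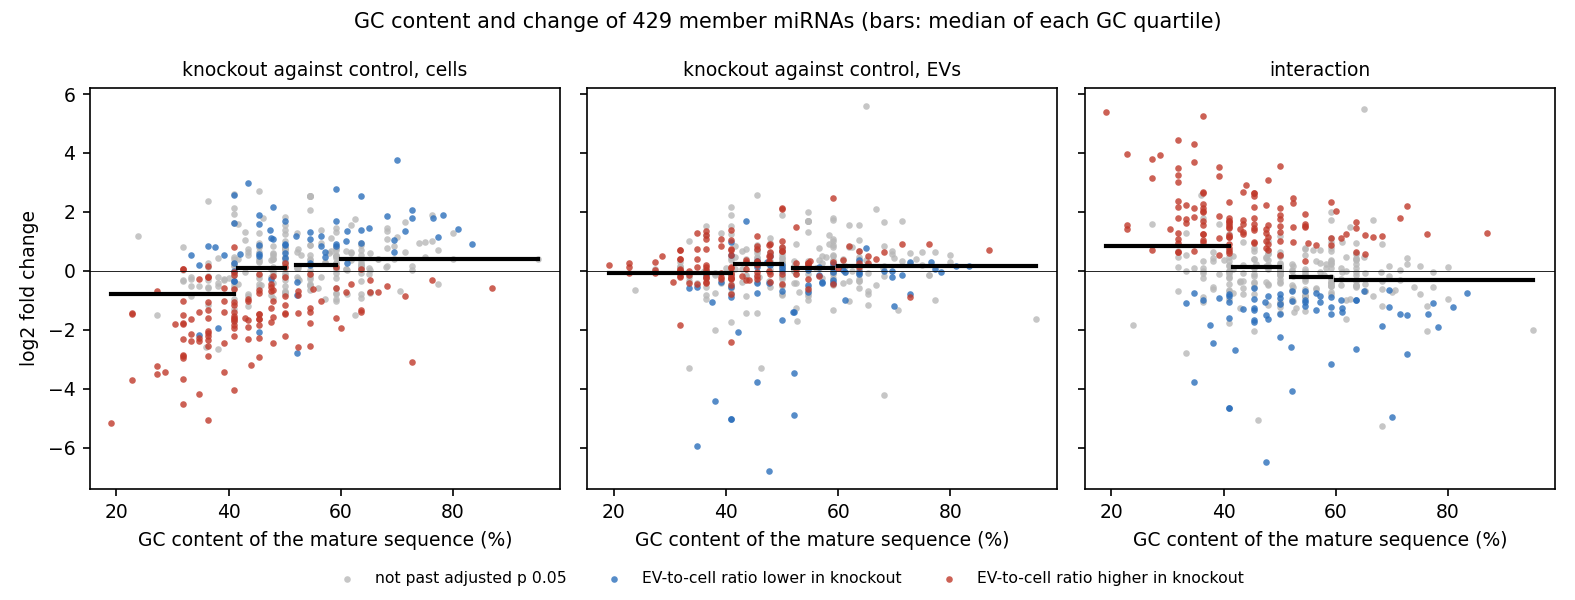
Log2 change of 429 miRNAs against the GC content of the mature sequence (%) in cells, in EVs and as the interaction, with bars at the median of each GC quartile and colours by call. The bars climb with GC content in cells from −0.78 to 0.40, lie between −0.07 and 0.24 in EVs and descend in the interaction from 0.86 to −0.31.

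Removing the GC trend of each library left 136 higher and 71 lower and moved some leading values. miR-590-3p, whose GC content is 19.05%, went to 3.44, miR-374a-3p to 2.31, miR-450b-5p to 1.83 and miR-1307-5p to −0.85, all still called. miR-454-3p at 3.55 and miR-335-3p at 4.61 moved less. Composition did not order the arms of a hairpin: of 104 hairpins with arms of unequal GC content, the arm with less GC had the higher interaction in 53. Among the 125 sequenced miRNAs with a higher ratio 69 begin with U. So do 20 of 66 with a lower ratio and 89 of 238 without a call. The share over all tested sequences was not counted for the first base. Median GC content was 42.9% in the group with a higher ratio and 52.2% in each of the others, and the first base was not separated from it. The letters GGAG, which occur in 9.66% of all 559 tested sequences, were found in 4.8% of those with a higher ratio and 13.6% of those with a lower one. The letters CCCU, in 10.2% of all tested, were found in 11.2% and 13.6%. Both were read on the miRNA strand only, as descriptions and not as sites.

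The ratio in the RAB27A knockdown line was set beside these values in a fit on all 12 libraries, with 621 miRNAs tested. Both lines are read against the same control libraries, so their interactions are given side by side. The contrast for their difference leaves the control groups out, while scaling and dispersions came from all 12 libraries. In this fit 140 of the 485 miRNAs were higher and 80 lower in the knockout (25.3% and 17.6% of all tested), and 22 higher and 65 lower in the knockdown (3.54% and 12.9%). The knockdown EVs are shallow, and 184 of the miRNAs had at least 20 counts there. Between the lines the ratio was higher in the knockout for 131 and lower for 58 (23.2% and 10.1%).

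Of the 15 leading increases, 9 had at least 20 counts in knockdown EVs, and all 9 were higher in the knockout than in the knockdown line. 1 of the 9, miR-374a-3p, was higher in the knockdown as well, at 0.66 (SE 0.23, adjusted p = 0.0415). miR-454-3p stood at 4.27 in the knockout and 0.05 in the knockdown (SE 0.16, adjusted p = 0.937), with a difference of 4.22 (SE 0.17). miR-590-3p stood at 5.37 and 0.34, and miR-20a-5p at 3.20 and 0.41. Of the 15 leading decreases 11 had that many counts, and 7 of these were lower in the knockdown too. miR-486-5p stood at −3.46 and −3.25 with a difference of −0.21 (SE 0.27, adjusted p = 0.67), and miR-99a-5p at −2.28 and −2.57. miR-126-5p stood at −2.49 and −5.75, and miR-143-3p at −6.52 and −4.63. Of the decreases that came from a rise in cells, miR-629-5p was called the other way in the knockdown, at 0.90 (adjusted p = 0.0202). miR-4516 was lower in both lines, at −1.49 in the knockout and −3.60 in the knockdown (adjusted p = 1.13e-07). Its ratio was higher in the knockout than in the knockdown line, by 2.11 (SE 0.42, adjusted p = 9.69e-05). Others did not pass in the knockdown. miR-193b-3p stood at 0.37 (adjusted p = 0.705), miR-574-5p at 0.19 (adjusted p = 0.832) and miR-146a-5p at −0.24 (adjusted p = 0.366), and each was lower in the knockout than in the knockdown line, by −3.56, −1.87 and −1.38.

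**Figure D5:**
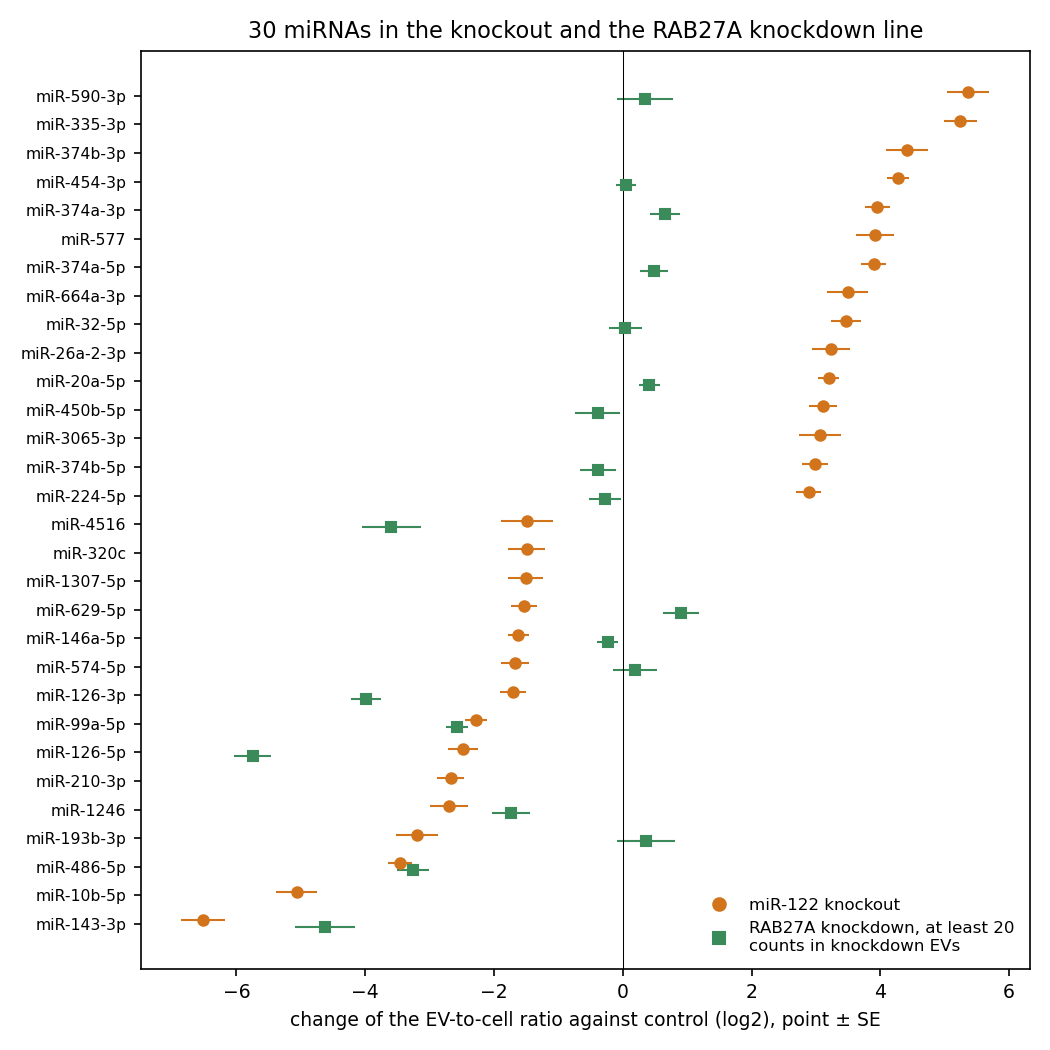
Change of the EV-to-cell ratio against the control line (log2, point and SE) for the 15 leading increases and the 15 leading decreases, in the miR-122 knockout (circles) and, for the 20 with at least 20 counts in knockdown EVs, in the RAB27A knockdown (squares). Squares lie between −0.39 and 0.66 for the increases, whereas several decreases, among them miR-143-3p, miR-486-5p and miR-126-5p, are below −3 in the knockdown as well.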

How the data were processed

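The deposited table holds raw counts per mature miRNA, whole numbers that the authors did not normalize. The tools named per the submitters' processing notes are cutadapt and Bowtie, without versions, and the build is hg19. How miRNAs were annotated, how many mismatches were allowed and how reads with several matches were counted is not given in the sources used here. Per the labels' protocols, cell RNA was taken with Trizol and EV RNA with Trizol LS, and the library protocol requires RNA with a 5′ monophosphate. Sequencing was done on a Genome Analyzer IIx.

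The 8 libraries were fitted with 1 coefficient per group with TMM factors in edgeR 4.0.16 (limma 3.58.1 and R 4.3.3), and contrasts were tested by quasi-likelihood with robust dispersions. Tested were the 635 miRNAs kept by filterByExpr plus described ones that failed it, 641 in all, and 479 of the 485 passed that filter. Benjamini-Hochberg adjustment ran over the 641 at 0.05. The SE is the size of the log2 change over the square root of F. Levels of single miRNAs are CPM scaled by TMM factors, and sums over several miRNAs are CPM of the library total.

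Named are the 15 largest increases and the 15 largest decreases among called miRNAs of at least median level with no overlap between the lines, the 8 most abundant, and up to 4 of the most abundant per list over 32 lists; others were chosen after their values were seen. The described miRNAs and the lists were chosen with earlier results of these data known. Counts of 641 miRNAs were simulated with 200 changed, all of them in knockout EVs alone. The interaction test recovered 39.4% of 2-fold and 75.8% of 4-fold changes, with 3.45% false calls. In the data the larger part lay in cells for 113 of 143 higher and 49 of 74 lower calls. Recovery of changes in cells was not simulated.

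Alternatives were other scalings, DESeq2 1.42.0, other filters, a loess GC correction (559 of 641 with a sequence), thinning, replicate terms and leaving out each library. Same-numbered libraries did not deviate together (correlations −0.136 to 0.128 over 364 miRNAs), so numbers were not treated as pairs. No molecular identifiers are recorded. Sequences could be matched for 88.5% of the described miRNAs, and the others were left out of GC comparisons.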

Additional observations from a re-analysis of the deposited data

Results flagged for a closer look

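The EV-to-cell ratio differed between the lines, by a test of the difference itself, for 217 miRNAs. For some of the named ones the ratio was called in opposite directions in the 2 lines, so that a miRNA lower in EVs than in cells in one line was higher in the other. Below the cells in control EVs and above them in knockout EVs were miR-590-3p (interaction 5.39), miR-335-3p (5.27), miR-454-3p (4.30), miR-374a-3p (3.98), miR-577 (3.95), miR-374a-5p (3.92), miR-20a-5p (3.22), miR-450b-5p (3.13) and miR-224-5p (2.91). Above the cells in control EVs and below them in knockout EVs were miR-486-5p (−3.43), miR-193b-3p (−3.17), miR-99a-5p (−2.26), miR-146a-5p (−1.59) and miR-629-5p (−1.51). The direction of an EV-to-cell ratio within a line depends on the scaling: in the control line 32.02% of the calls were higher with TMM factors and 53.5% with total counts.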

How the results depend on the processing

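Over 24 alternatives the number of called interactions ran from 182 to 234, against 217, and for the 30 leading miRNAs 709 of 714 values passed in the same direction; the 5 others were all of miR-4516. Leaving out 1 library gave 182 to 234 interactions, 275 to 310 changes in cells, 78 to 145 in EVs, 131 to 242 between EVs and cells of the control line and 236 to 292 of the knockout line. In the control line total counts made 53.5% of the EV-to-cell calls higher, against 32.02%, and in the knockout line 59.9% against 49.3%. Removing the GC trend, alone or with the replicate block, turned the direction of miR-1268a (0.10 and 0.088, against −0.75), miR-29c-3p (−0.57 and −0.57, against 0.08), miR-365a-3p and miR-365b-3p (−0.30 and −0.33, against 0.65) and miR-9-5p (−0.082 and −0.077, against 0.67). Of these, miR-29c-3p was then called (adjusted p = 0.0425 and 0.0381), and the other calls were lost.

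With the replicate number as a block 212 interactions were called, 137 higher and 75 lower, and 213 with a block within each line. The block gave 306 calls in cells, 135 in EVs, and 225 and 288 between EVs and cells of the control and knockout lines.

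Each group has 2 libraries of 1 line, so line and genotype cannot be told apart. EV libraries are shallower than cell libraries, and 372 and 388 of the 485 miRNAs had at least 20 counts in control and knockout EVs. Where a library is left out, the lone remaining one is assumed to vary like the other groups.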

Other observations

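Among the 156 tested miRNAs that did not meet the count rule in cells, 22 had a higher EV-to-cell ratio in the knockout line and 25 a lower one. Low counts in cells kept them from the rule, so the direction of their calls is partly set by how they were selected and supports nothing. Of the 12 tested entries of the miR-548 family among them, 10 were higher. Others nearly vanished from knockout cells. miR-556-3p had 28 and 20 counts in control cells and none in knockout cells, against 4 and 0 in control EVs and 4 and 5 in knockout EVs. miR-374c-5p, whose hairpin overlaps that of miR-374b on the other strand, had 79 and 91 counts in control cells and 5 and 6 in knockout cells, with 18 and 14 in control EVs and 22 and 20 in knockout EVs (interaction 3.75). miR-301a-5p had 104 and 114 counts in control cells and 4 and 12 in knockout cells (interaction 3.20).

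The lower ones included 12 of the 42 tested miRNAs of the 14q32 cluster and 3 of 7 of blood cells. Those described here were near 0 in cells and high in control EVs, so a lower ratio was built into their selection. miR-127-3p had 724 and 784 counts in control EVs, 8 and 1 in knockout EVs and 1 and 1 in control cells. miR-155-5p, an NF-κB-induced miRNA of leukocytes, had no count in control cells, 171 and 178 in control EVs and 3 and 2 in knockout EVs, and its counts in knockout cells were 0 and 5.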
